A study of Homo sapiens with 6 samples.

Results

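The genes described here are 43 genes of drug metabolism and drug efflux, chosen by name and found by matching the symbol column of the deposited count table, which held 25445 rows. They comprise 7 xenobiotic receptors, their partners and regulators (called receptors below), 13 cytochromes P450, 14 phase II transferases and 9 ABC efflux pumps. Their RNA was measured in MHCC-97H, an established human liver cancer cell line, so every value comes from 1 line. The 3 libraries of 6j treated cells came from cells given 10 μM of 6j, which is derived from sophoridine (an alkaloid of plants), for 16 h. The 3 libraries of non-treated cells received solvent for the same time. Nothing in the labels says whether the 3 libraries of a group came from separate cultures, so the p-values measure only the spread between these libraries, which may be technical.

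A liver cell handles a drug in steps. Receptors that bind foreign compounds switch on transcription of enzymes, cytochromes P450 oxidise the compound in phase I, transferases join it to glutathione, sulfate, glucuronic acid or acetate in phase II, and ABC pumps spend ATP to move the drug or its conjugates out of the cell. The aryl hydrocarbon receptor AHR pairs with ARNT and acts on CYP1A1, CYP1B1, TIPARP and AHRR, while the pregnane X receptor NR1I2 and the constitutive androstane receptor NR1I3 act on CYP3A4, CYP2B6 and ABCB1 in hepatocytes. In cancer the pumps ABCB1, ABCC1 and ABCG2 are known for carrying drugs out of tumor cells.

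Total counts ranged from 31533403 to 38018349 per library, and 3 counts, taken as the limit that a count of 0 allows, corresponded to 0.0781 to 0.0952 CPM. This limit covers counting error only. The 95% intervals of fold changes given below come from the edgeR fit and include the spread between libraries of a group. CPM is the count of a gene in counts per 1000000 of the TMM normalized library size. CPM per kb divides CPM by the length of all annotated exons of the gene, which can exceed the length of the transcripts present. Levels of different genes, and their ranks, shares and sums per kb, can therefore be compared only roughly. The labelled liver origin was not borne out by most defining markers of hepatocytes. Of 17 hepatocyte markers, CPS1 alone reached 1 CPM in all libraries, AHSG, HP and TTR were among those at 0 in all 6, and ALB and AFP were at 0 in the non-treated libraries. The summed hepatocyte markers, carried by CPS1, were 1569 to 1685 CPM in non-treated and 1327 to 1442 CPM in 6j treated libraries. The summed epithelial markers were 1337 to 1654 against 1113 to 1215 CPM, with EPCAM at 0 in all libraries. Both sums were lower in every 6j treated library, and their part in the results below was not tested.

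The line expressed most of these genes. At least 1 CPM in each non-treated library was reached by 29 of the 43 genes (67.4%), beside 11876 of the 19974 rows with an Ensembl identifier (59.5%). By class these were 5 of 7 receptors, 5 of 13 cytochromes P450, 11 of 14 transferases and 8 of 9 pumps. The other 14 were NR1I2, which had no count in any library, and 13 genes under the minimum, namely NR1I3, CYP1A2, CYP2B6, CYP2D6, CYP2E1, CYP2J2, CYP3A4, CYP3A5, CYP4F11, UGT1A6, UGT2B7, SULT2B1 and ABCB4. Summed per kb of exon, the transferases stood highest in non-treated cells at 225 ± 7.72 CPM per kb (SD, n = 3), followed by the pumps at 84.6 ± 3.05, the receptors at 77.7 ± 7.04 and the cytochromes P450 at 9.34 ± 1.14. In 6j treated cells the sums were 192 ± 0.502, 80.1 ± 2.33, 94.4 ± 8.18 and 14.9 ± 1.89 CPM per kb (SD, n = 3) in the same order. These sums were not tested. In the receptor sum, the repressor AHRR and the enzyme TIPARP gave 39.8 and 14.9 CPM per kb in non-treated cells. In 6j treated cells they gave 48.8 and 20.7 CPM per kb. AHRR made up 51.1% of the receptor sum in non-treated cells.

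**Figure D1:**
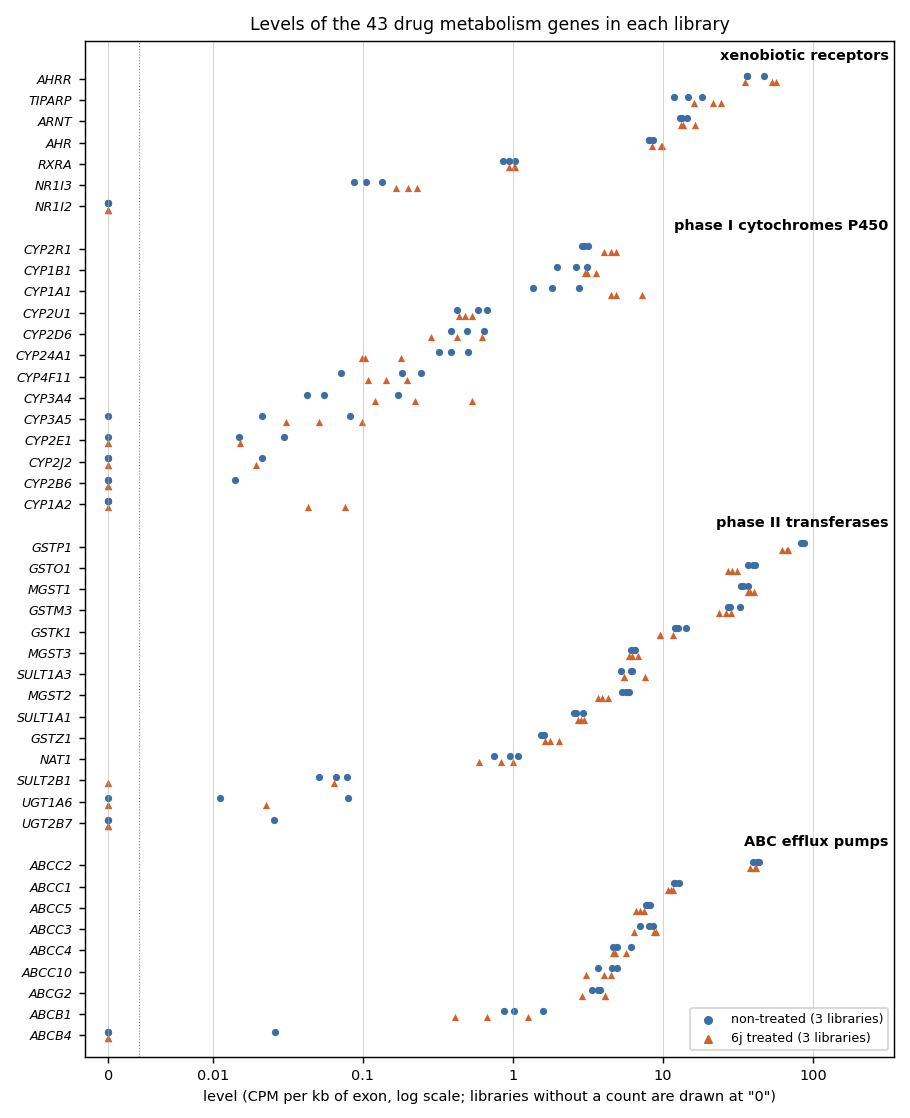
Level of each gene in CPM per kb of exon (log axis) in the 6 libraries, grouped by class, with non-treated and 6j treated libraries as separate points. GSTP1 stood highest at 85.3 CPM per kb in non-treated cells, whereas no cytochrome P450 had a non-treated library above the lowest ABCC3 library, and NR1I2 had no count.

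The low filter kept 34 of the 43 genes for testing. The 9 that were not tested had between 0 and 13 counts in any library, and they were NR1I2, CYP1A2, CYP2B6, CYP2E1, CYP2J2, UGT1A6, UGT2B7, SULT2B1 and ABCB4. A gene passed the test at a Benjamini-Hochberg adjusted p under 0.05 in edgeR's quasi-likelihood test over all 15957 rows tested, and was called when its fold change also exceeded 1.5. Of the 34, 6 genes (17.6%) passed the test, beside 9.16% of all rows. CYP1A1 and CYP2R1 rose, 2 genes beside 4.79% of all rows, and CYP24A1, GSTP1, GSTO1 and MGST2 fell, 4 genes beside 4.37% of all rows. In bulk RNA such as this, fewer cells with a transcript and less of it per cell cannot be told apart. With the fold threshold, 1 gene was called higher (CYP1A1, 2.94% of the 34, beside 2.48% of all rows) and 1 was called lower (CYP24A1, 2.94%, beside 1.12%). The shares called were close to the background at 1 gene each, and the 34 genes were centred where all rows were, with 17 positive and 17 negative log2 fold changes, a median of 0.00 beside 0.00 over all rows, and a median absolute value of 0.20 beside 0.22.

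Libraries that share a number across the groups tended weakly to depart from their group means in the same direction (correlations over genes 0.171, 0.18 and 0.312). Each gene was therefore also fitted with the replicate number as a block. With the block, 10 genes (29.4%) passed the test, beside 26.9% of all rows. The 4 further genes were TIPARP and CYP3A4, which were higher, and GSTK1 and ABCB1, which were lower. With the fold threshold 2 genes were called higher (CYP1A1 and CYP3A4, 5.88%, beside 4.01% of all rows) and 2 were called lower (CYP24A1 and ABCB1, 5.88%, beside 2.46%). The libraries of the groups did not overlap, with 6j treated cells higher, in 4 genes (11.8%, beside 16.0% of all rows), namely CYP1A1, CYP2R1, NR1I3 and GSTZ1. They did not overlap in the other direction in 7 genes (20.6%, beside 15.8%), namely CYP24A1, GSTP1, GSTO1, GSTK1, MGST2, ABCC1 and ABCC5.

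**Figure D2:**
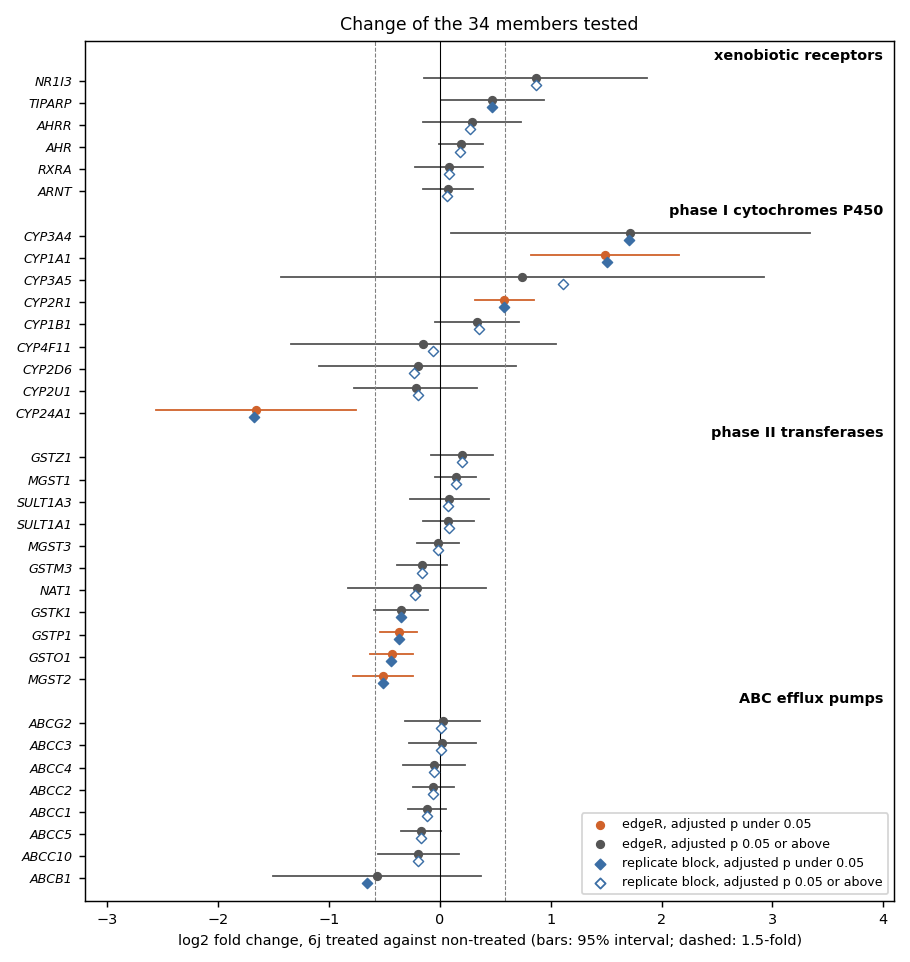
Log2 fold change of each tested gene (6j treated over non-treated) with its 95% interval from edgeR, grouped by class, with the value from the fit with the replicate block as a diamond below it. Colour marks an adjusted p under 0.05, and dashed lines mark 1.5-fold. CYP1A1 and CYP24A1 lie past the thresholds on opposite sides, the 3 transferases that fell lie between 0 and the lower threshold, and the interval of each tested pump reaches across 0.

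Among the receptors, no gene passed the test without the block. All 6 tested had a positive log2 fold change, from 0.07 for ARNT to 0.86 for NR1I3, beside 8086 of all 15957 rows. The value of ARNT was −0.03 when 6j treated replicate 3 was left out. AHR (chromosome 7, 16916359 to 17346152), the ligand-activated receptor for polycyclic aromatic compounds, was at 65.0, 69.5 and 65.1 CPM in non-treated and 68.5, 78.8 and 80.2 CPM in 6j treated libraries. The groups overlapped, and the log2 fold change of AHR was 0.19 (SE 0.09, adjusted p = 0.208, 95% interval of the fold 0.994 to 1.31). AHR shares 29.4% of its exon bases on the same strand with another annotated gene, AC019117.2, which had no count in 5 of the 6 libraries. Its partner ARNT gave 87.1, 85.1 and 94.8 CPM against 85.7, 88.7 and 107 CPM. ARNT also overlapped between the groups, with a log2 fold change of 0.07 (SE 0.10, adjusted p = 0.700).

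AHRR, the repressor that competes with AHR for ARNT and is itself a target of AHR, had the highest level of its class per kb, at 39.8 ± 6.32 CPM per kb (SD, n = 3) in non-treated cells. Its libraries were at 278, 362 and 278 CPM in non-treated and 412, 439 and 272 CPM in 6j treated cells. Replicate 3 of the treated cells lay below all non-treated libraries while replicates 1 and 2 lay above them, and the log2 fold change was 0.29 (SE 0.19, adjusted p = 0.386). AHRR shares 244 exon bases on the same strand with PDCD6 (3.18% of its exon length), where reads may be split between the genes. PDCD6 itself had a log2 fold change of −0.15 (adjusted p = 0.209).

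TIPARP (chromosome 3, 156673235 to 156706770), an AHR target that encodes a mono-ADP-ribosyltransferase acting on AHR, was at 59.7, 73.7 and 92.4 CPM in non-treated and 81.3, 109 and 123 CPM in 6j treated libraries. The groups overlapped, and the log2 fold change was 0.47 (SE 0.20, adjusted p = 0.183). Each treated library lay above the non-treated library of the same number, by 0.45, 0.57 and 0.41 on the log2 scale. With the replicate block TIPARP passed the test at 0.48 (SE 0.06, adjusted p = 0.000228), and DESeq2 without a block gave an adjusted p of 0.0479. Its rise was under 1.5-fold in each of these fits.

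The receptors of the hepatocyte drug response had no count or under 1 CPM. NR1I2, the pregnane X receptor, had 0 counts in all 6 libraries, which allows up to 0.0952 CPM in the shallowest of them. NR1I3, the constitutive androstane receptor, was at 0.345, 0.444 and 0.287 CPM in non-treated and 0.547, 0.661 and 0.757 CPM in 6j treated libraries. The NR1I3 groups did not overlap, but its log2 fold change of 0.86 (SE 0.45) had an adjusted p of 0.259, and 20.0% of its exon bases lie opposite TOMM40L, whose level was 26.3 CPM in non-treated cells. Whether the counting used strand is not given in the sources used here, so reads of NR1I3 and TOMM40L may not be told apart. RXRA, the partner of both receptors, was at 10.4, 11.5 and 9.48 CPM against 11.5, 11.3 and 10.4 CPM, with a log2 fold change of 0.08 (SE 0.14, adjusted p = 0.758).

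Among the cytochromes P450, CYP1A1 and CYP2R1 rose and CYP24A1 fell. CYP1A1 (chromosome 15, 74719542 to 74725610) oxidises polycyclic aromatic compounds and is the classical target of AHR. Its libraries were at 4.64, 9.55 and 6.26 CPM in non-treated and 15.5, 25.1 and 16.7 CPM in 6j treated cells, so that the lowest treated library lay above the highest non-treated one. CYP1A1 rose 2.81-fold (95% interval 1.76 to 4.47, log2 fold change 1.49, SE 0.29, adjusted p = 0.0215), and with the block the adjusted p was 1.29e-05. The log2 fold change stayed between 1.24 and 1.81 when single libraries were left out. The call was lost without non-treated replicate 1 (adjusted p = 0.0694), non-treated replicate 3 (adjusted p = 0.0842) or 6j treated replicate 2 (adjusted p = 0.0808).

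The other enzymes of family CYP1 were low or overlapped between the groups. CYP1B1, which also oxidises steroids and polycyclic compounds, was at 11.9, 15.7 and 18.7 CPM in non-treated and 21.6, 18.2 and 18.8 CPM in 6j treated libraries, with a log2 fold change of 0.34 (SE 0.17, adjusted p = 0.239). CYP1A2, the caffeine-oxidising enzyme of hepatocytes, had no count in the non-treated libraries and 8, 0 and 4 counts in 6j treated ones, and no fold is given for it.

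CYP2R1 (chromosome 11, 14877440 to 14892252), the vitamin D 25-hydroxylase, had the highest level of its class per kb in non-treated cells, at 3.0 ± 0.151 CPM per kb (SD, n = 3). It was at 13.0, 13.4 and 14.3 CPM in non-treated and 18.4, 22.1 and 20.3 CPM in 6j treated libraries, without overlap. CYP2R1 rose by a log2 fold change of 0.58 (SE 0.12, adjusted p = 0.0201), just under the 1.5-fold threshold, and was past that threshold and the test in 2 of the 6 fits that left out a library. It passed the test itself in 3 of the 6.

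CYP24A1 (chromosome 20, 54153449 to 54173973), the 24-hydroxylase that breaks down active vitamin D and is a target of the vitamin D receptor, moved the opposite way from CYP2R1. It was at 1.54, 1.27 and 1.98 CPM in non-treated and 0.390, 0.714 and 0.408 CPM in 6j treated libraries, from 58, 40 and 69 against 15, 27 and 14 counts. The groups did not overlap, and CYP24A1 fell by 1.66 on the log2 scale (SE 0.40, adjusted p = 0.0354), to 0.317 of the non-treated level. Its log2 fold change lay between −1.99 and −1.47 in the 6 fits that left out a library, but the call was lost in all 6 (adjusted p from 0.0638 to 0.121). The vitamin D receptor VDR was at 41.1 ± 3.71 CPM in non-treated and 32.4 ± 3.38 CPM in 6j treated cells (SD, n = 3). Its log2 fold change was −0.34 (adjusted p = 0.0871, with the block 0.00763, where 26.9% of all rows passed). CYP27B1, another P450 of vitamin D, was at 7.61 ± 1.70 and 9.83 ± 1.85 CPM (SD, n = 3). Its log2 fold change was 0.37 (adjusted p = 0.313, with the block 0.0653). VDR and CYP27B1 were named here after their values were seen.

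CYP3A4 (chromosome 7, 99756960 to 99784265), the P450 that oxidises the largest share of medicines in liver, was under 2 CPM in every library. It was at 0.133, 0.539 and 0.172 CPM in non-treated and 0.703, 1.67 and 0.378 CPM in 6j treated libraries. The groups overlapped, and the log2 fold change of 1.72 (SE 0.72) had an adjusted p of 0.168. Within each replicate number the treated library was higher, and with the block CYP3A4 was called higher at 1.71 (SE 0.53, adjusted p = 0.0341). Leaving out single libraries moved its log2 fold change from 0.96 to 2.57, with the lowest value without 6j treated replicate 2.

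The remaining tested cytochromes P450 overlapped between the groups and did not pass the test. CYP3A5, the close relative of CYP3A4, was at 0.557, 0 and 0.144 CPM against 0.208, 0.344 and 0.670 CPM. CYP2D6, which oxidises many antidepressants and opioids, was at 1.57, 1.21 and 0.948 CPM against 1.51, 1.03 and 0.699 CPM. CYP2U1, a fatty acid hydroxylase, was at 2.60, 3.58 and 4.11 CPM against 2.68, 2.94 and 3.23 CPM, and CYP4F11, which hydroxylates long-chain fatty acids, at 0.982, 0.730 and 0.287 CPM against 0.573, 0.793 and 0.437 CPM. CYP2B6, CYP2E1 and CYP2J2, the enzymes known for oxidising bupropion, ethanol and arachidonic acid, had at most 9 counts in any library.

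Among the phase II enzymes, 3 of the 11 tested fell, beside 4.37% of all rows, none rose, and none passed 1.5-fold. All 3 belong to the glutathione handling enzymes, as do all of the 11 tested except SULT1A1, SULT1A3 and NAT1. GSTP1 (chromosome 11, 67583595 to 67586656), the pi class glutathione transferase that is abundant in many tumors, was the highest of all 43 genes per kb, at 85.3 ± 1.93 CPM per kb (SD, n = 3) in non-treated cells. Its libraries were at 159, 165 and 166 CPM in non-treated and 128, 120 and 131 CPM in 6j treated cells. The groups did not overlap, and GSTP1 fell by 0.37 on the log2 scale (SE 0.08, adjusted p = 0.0197), to 0.774 of the non-treated level. It made up 37.2 to 38.4% of the summed transferase level per kb in non-treated and 32.7 to 35.7% in 6j treated libraries. This rank and share rest on exon length, which was 1911 bases for GSTP1 and 7440 for MGST1. By CPM alone, ABCC2 (329), AHRR (306) and MGST1 (260) stood above GSTP1 (163) in non-treated cells.

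GSTO1 (chromosome 10, 104235356 to 104267459), the omega class enzyme, which also reduces dehydroascorbate and methylated arsenic, was at 62.6, 69.7 and 67.6 CPM in non-treated and 48.9, 52.7 and 46.3 CPM in 6j treated libraries. It fell by 0.43 on the log2 scale (SE 0.09, adjusted p = 0.0190), to 0.740 of the non-treated level, without overlap of the groups. MGST2 (chromosome 4, 139665768 to 139740745), a microsomal enzyme that can also make leukotriene C4, was at 17.1, 19.1 and 18.0 CPM in non-treated and 12.5, 13.8 and 11.7 CPM in 6j treated libraries. It fell by 0.51 on the log2 scale (SE 0.12, adjusted p = 0.0317), to 0.700 of the non-treated level, again without overlap. A stretch of 252 exon bases of MGST2 (7.92%) lies opposite MAML3, which had a log2 fold change of −0.62 (adjusted p = 0.0615). When single libraries were left out, GSTP1 and GSTO1 passed the test in 2 of 6 fits each and MGST2 in none, while all 3 stayed lower in every fit.

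GSTK1 (chromosome 7, 143244093 to 143270854), the kappa class enzyme of mitochondria and peroxisomes, was at 53.7, 60.7 and 51.3 CPM in non-treated and 49.0, 40.8 and 40.4 CPM in 6j treated libraries. Its groups did not overlap, and the log2 fold change was −0.35 (SE 0.11, adjusted p = 0.0769). It passed the test with the block (adjusted p = 0.0118) and in DESeq2 (adjusted p = 0.0388).

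The other glutathione enzymes did not pass in either fit. MGST1, the microsomal enzyme of endoplasmic reticulum and mitochondria that reduces lipid peroxides, was at 260 ± 15.2 CPM in non-treated and 287 ± 12.2 CPM in 6j treated cells (SD, n = 3, log2 fold change 0.14, adjusted p = 0.308). GSTM3, of the mu class, was at 139 ± 13.4 and 125 ± 11.4 CPM (SD, n = 3), with a log2 fold change of −0.16 (adjusted p = 0.368). MGST3 differed by −0.02 on the log2 scale (adjusted p = 0.934). GSTZ1, which isomerises maleylacetoacetate in tyrosine breakdown, was at 13.4 ± 0.253 and 15.4 ± 1.67 CPM (SD, n = 3), and although all 3 treated libraries were higher, its log2 fold change of 0.20 had an adjusted p of 0.347.

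Of the sulfate and acetyl transferases, the 3 that were tested did not pass. SULT1A1, which sulfates phenols, was at 24.0 ± 1.74 and 25.3 ± 1.20 CPM (SD, n = 3, log2 fold change 0.08, adjusted p = 0.684). SULT1A3, which sulfates dopamine, had a log2 fold change of 0.09 (adjusted p = 0.775), and reads may be split between it and its near-identical copy SULT1A4, whose log2 fold change was −0.26 (adjusted p = 0.213). NAT1, an arylamine acetyltransferase, had a log2 fold change of −0.21 (adjusted p = 0.692). UGT1A6, UGT2B7 and SULT2B1 had at most 13 counts in any library, and UGT1A6 shares exons with the other UGT1A genes.

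**Figure D3:**
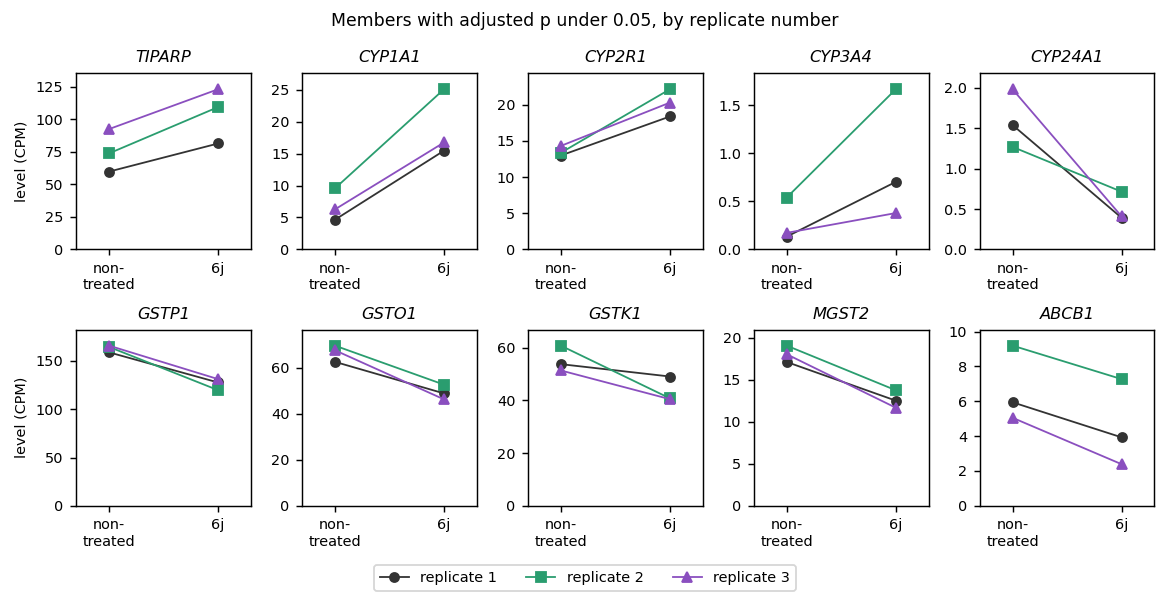
CPM of the 10 genes that passed the test in the fit with or without the replicate block, 1 panel each, with non-treated and 6j treated libraries of the same replicate number joined by a line. CYP1A1, CYP2R1, TIPARP and CYP3A4 go up and CYP24A1, GSTP1, GSTO1, MGST2, GSTK1 and ABCB1 go down within each of the 3 numbers. The fit with the block favours genes that differ alike within the numbers, so this agreement follows in part from how the genes were chosen.

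The start regions were read for the elements of AHR with ARNT, of the antioxidant response and of C/EBP with ATF factors. RefSeq start windows (GRCh38.p14, 250 bases before to 50 after the start) were at hand for 34 of the 43 genes, and each was searched on both strands. These are not the same 34 genes as those tested for change, since UGT1A6, SULT2B1 and CYP2B6 were not tested. The AHR element TNGCGTG was found in 3 of the 34 genes (8.82%), AHRR, UGT1A6 and SULT2B1, beside 5.51% of all 35116 windows and 6.69% of all 27305 genes. The CYP1A1 window did not hold these letters. Sequence beyond the windows was not searched, so an element further from the CYP1A1 start would not have been seen. The antioxidant element TGACNNNGC was found in 11 of the 34 genes (32.4%), beside 13.3% of windows and 16.1% of genes. GSTP1 and GSTO1, which fell, were among the 11 with ARNT, RXRA, UGT1A6, MGST1, ABCC4, ABCC10, ABCG2, CYP4F11 and CYP2B6. The C/EBP-ATF element TGATGNAA was found in 2 of the 34 genes (5.88%), ABCG2 and CYP2B6, beside 3.62% of windows and 4.46% of genes. A match is a description of the letters only, and genes with several annotated starts have more chances to hold one. The 34 genes had 51 windows, and their shares count genes, so they compare with the share of genes and not of windows.

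The matches of AHRR, the highest of its class per kb, and of GSTP1 and GSTO1, transferases that fell, are shown with their flanks. Each is on the plus strand of GRCh38 from 5′ to 3′, with the element in capitals. The transferases MGST1 (log2 fold change 0.14) and UGT1A6 (no fold change) also held the antioxidant element and are not shown. Whether the element goes with the fall was not tested. Counted from the RefSeq start, with −1 as the base before it, the AHRR element begins at −32, that of GSTP1 at −66 and those of GSTO1 at −226 and −161.
AHRR, chr5:321671-321700: gggcgggcggcTCGCGTGccggggtggggc
GSTP1, chr11:67583736-67583765: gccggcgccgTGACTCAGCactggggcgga
GSTO1, chr10:104254656-104254685: ggcggagggaTGACTGAGCatttataactt
GSTO1, chr10:104254721-104254750: cgagatgcttTGACACAGCcccttaagatg

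Of the ABC pumps, none of the 8 tested passed the test without the block. ABCC2 (chromosome 10, 99782640 to 99852594), which moves conjugates into bile at the apical membrane, was the highest pump per kb at 42.0 ± 2.14 CPM per kb (SD, n = 3) in non-treated cells, and made up 49.6% of the summed pump level there. It was at 331, 345 and 311 CPM in non-treated and 327, 321 and 299 CPM in 6j treated libraries. The groups overlapped, and the fold of ABCC2 was 0.960 (95% interval 0.846 to 1.09, adjusted p = 0.701). ABCC3 (chromosome 17, 50634777 to 50692252), the basolateral pump for glucuronides, was at 68.1, 77.9 and 82.4 CPM against 61.8, 83.7 and 86.7 CPM, with a 95% interval of the fold of 0.823 to 1.26 (adjusted p = 0.937).

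ABCC1 (chromosome 16, 15949577 to 16143074), the multidrug resistance protein that exports glutathione conjugates, was at 90.4, 97.2 and 90.6 CPM in non-treated and 86.2, 81.8 and 88.3 CPM in 6j treated libraries. All treated libraries lay below the non-treated ones, but the fold of 0.921 (95% interval 0.818 to 1.04) had an adjusted p of 0.371. ABCC5, which exports cyclic nucleotides, was at 90.8 ± 3.14 and 80.9 ± 5.28 CPM (SD, n = 3), also without overlap, with a log2 fold change of −0.17 (SE 0.08, adjusted p = 0.229). ABCC4 and ABCC10, which share drug substrates with them, had log2 fold changes of −0.06 (adjusted p = 0.826) and −0.19 (adjusted p = 0.504).

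ABCB1 (chromosome 7, 87503633 to 87713323), the P-glycoprotein that exports many cytotoxic drugs, had the largest standard error of its log2 fold change among the 8 pumps tested. It was at 5.94, 9.20 and 5.06 CPM in non-treated and 3.93, 7.27 and 2.39 CPM in 6j treated libraries, so the groups overlapped. Its log2 fold change was −0.57 (SE 0.41, 95% interval −1.51 to 0.37, adjusted p = 0.431). Within each replicate number the treated library was lower, by log2 ratios of −0.60, −0.34 and −1.08, and with the block ABCB1 was called lower at −0.66 (SE 0.19, adjusted p = 0.0241). Without single libraries its log2 fold change lay between −1.09 and −0.26.

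ABCG2 (chromosome 4, 88090264 to 88231322), the breast cancer resistance protein, was at 17.1, 18.7 and 19.3 CPM in non-treated and 20.9, 20.6 and 14.6 CPM in 6j treated libraries. Treated replicates 1 and 2 lay above and replicate 3 below all non-treated libraries, and the log2 fold change was 0.03 (SE 0.15, adjusted p = 0.938, 95% interval of the fold 0.805 to 1.29). ABCB4, the phospholipid pump of bile formation, had 7 counts in non-treated replicate 3 and none elsewhere.

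The rest of the pathway was read from 6 further lists with 256 genes, of which 255 were in the table and 150 were tested. Over the 150, 3 genes were called higher (2.0%, beside 2.48% of all rows) and 1 was called lower (0.667%, beside 1.12%), and the median log2 fold change was −0.02. These shares were no larger than over all rows, and the called genes are given as values of single genes. Of 23 other receptors and cofactors, PPARA, the fatty acid receptor of liver, rose from 23.1 ± 3.92 to 39.5 ± 5.68 CPM (SD, n = 3, log2 fold change 0.77, adjusted p = 0.0181), and its coactivator PPARGC1A rose from 26.7 ± 4.49 to 47.8 ± 12.7 CPM (SD, n = 3, log2 fold change 0.84, adjusted p = 0.0374). Of 33 other phase I enzymes, DPYD, which breaks down 5-fluorouracil, fell from 17.1 ± 1.59 to 11.4 ± 0.756 CPM (SD, n = 3, log2 fold change −0.59, adjusted p = 0.0231). Each of these 3 calls was lost in at least 3 of the 6 fits that left out a library.

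Of 23 drug uptake and exchange carriers, SLC22A15, a member of the organic cation and zwitterion carrier family, rose from 8.44 ± 1.05 to 22.0 ± 5.77 CPM (SD, n = 3, log2 fold change 1.38, SE 0.19, adjusted p = 0.00713). Its call held in all 6 fits that left out a library, which was not so for any of the calls among the 43 genes. No gene was called among 21 other cytochromes P450 and their electron donors, 28 other phase II enzymes and 22 other ABC transporters. With the block, 5 of the 150 were called higher (3.33%, beside 4.01% of all rows) and 6 lower (4.0%, beside 2.46%). NQO1, a quinone reductase that AHR also acts on, was at 296 ± 29.6 and 283 ± 32.8 CPM (SD, n = 3) with a log2 fold change of −0.06 (adjusted p = 0.763). ALDH3A1, another gene that AHR acts on, was at 5.01 ± 2.78 and 3.30 ± 0.958 CPM (SD, n = 3), with a log2 fold change of −0.61 (adjusted p = 0.373). NQO1 and ALDH3A1 were named after their values were seen.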

How the data were processed

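Poly(A) RNA of 3 non-treated and 3 6j treated libraries of MHCC-97H cells was sequenced. The deposited values are counts of each gene, in whole numbers and not normalized by the authors. The submitters' processing notes name HISAT2, StringTie and GRCh38. The counting program, annotation release, strand setting, and whether the counts are reads or rounded estimates are not given in the sources used here. The table held 25445 rows, 3354 without any count and 5471 for new genes of the authors' assembly. All columns of values were used.

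Counts were filtered with filterByExpr (minimum count 10, minimum total 15), normalized by TMM and fitted with robust quasi-likelihood models without covariates in edgeR 4.0.16 (limma 3.58.1, R 4.3.3), with Benjamini-Hochberg adjustment over all 15957 rows tested. The thresholds for a call were 0.05 for the adjusted p and 1.5 for the fold change. Standard errors were computed from the F statistic. DESeq2 1.42.0 served as another tool, with its missing adjusted p-values kept missing. Tables were made in Python 3.11.15. The scripts were tested on simulated data.

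Replicate numbers are shared between the groups. Correlations of deviations from the group means over 15957 genes were 0.171, 0.18 and 0.312 for equal numbers and −0.231 to 0.0795 for unequal ones, so the numbers were taken to pair the libraries, although no label says what they mark. Libraries of a group differed beyond sampling noise.

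The members and lists were chosen with earlier results of these data known. By rule, values in every library are given for genes that passed in either edgeR fit or in DESeq2, for the highest gene of each class per kb, and for AHR, CYP1A1, CYP1B1, TIPARP, ABCB1, ABCC1, ABCC2, ABCC3 and ABCG2, with other genes given more briefly. From the other lists, called genes are named. Coordinates are GENCODE version 29 on GRCh38. Start windows are from RefSeq (GRCh38.p14), and no protein sequences were used here. The alternatives were other normalization, filter, tool, thresholds, a fit with the replicate block, and fits without each library in turn.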

Additional observations from a re-analysis of the deposited data

How the results depend on the processing

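Over the 34 genes tested, 327 of 340 alternative values stayed on their side of the thresholds for a call, 9 lost the call, 4 gained it and no called value changed direction. The direction differed under some alternative in 8 genes, none of which passed the test. Other size factors, no filter and DESeq2 kept the numbers of members called higher and lower at 1 each, and the number past the test was 6, 6 and 8. With the replicate block, members called higher went from 1 to 2, those called lower from 1 to 2, and those past the test from 6 to 10, while calls over all rows went from 574 to 1033. A fold change above 2 left 194 calls over all rows, with CYP1A1 and CYP24A1 among them. The counts rested on single libraries. Leaving out 1 library gave 186 to 772 calls over all rows (186 without non-treated replicate 1, 193 without 6j treated replicate 2, 379 without non-treated replicate 3), 0 to 2 members called higher, 0 called lower in all 6 fits, and 0 to 5 past the test. The calls lost there were those of CYP24A1 in all 6 fits and of CYP1A1 in 3. With a minimum of 0.5 or 5 CPM, 30 or 25 members were expressed in place of 29. Among the 34 genes, the block changed no call other than those of CYP3A4 and ABCB1.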
